A study of Homo sapiens and Mus musculus with 12 samples.

Results

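The genes examined are known as targets of the repressor GFI1 or as drivers of leukemia, and their loci were read in the ChIP-seq peak lists of 2 human leukemia lines. They are HOXA9, HOXA10, MEIS1, MYB, MYC, ID1, ID2, CDKN1A and CSF1, which makes 9 of 20033 protein-coding genes of GENCODE release 44 on chromosomes 1 to 22, X and Y. The genes were chosen by name, with earlier results of these data known. Each was given the window of its gene body and 20 kb on either side on GRCh38. THP1 is a monocytic leukemia line that carries the KMT2A::MLLT3 fusion, and it had 1 SPI1 and 1 GFI1 ChIP without any guide or treatment in the labels. K562 is a chronic myeloid leukemia line with erythroid features. Its cells stably expressed Cas9 in both arms and then received either a control guide without a target (sg-NT, 1 LSD1 ChIP and 1 GFI1 ChIP) or a guide against LSD1 (sg-LSD1, 1 GFI1 ChIP). The study describes its sg-LSD1 cells as a line made with a single guide, and whether they were a pool or a clone is not given in the sources used here. No LSD1 list of sg-LSD1 cells was analysed here, so the depletion itself could not be checked from the peaks, and peak lists carry no expression by which to check the cell lines. The study itself reports a strong loss of LSD1 protein in its LSD1-targeted K562 cells by western blot. The study describes the available GFI1 antibodies as difficult in ChIP-seq.

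GFI1 is a zinc-finger protein that binds DNA at sites with an AATC core and represses transcription by bringing the demethylase LSD1 and its partners to chromatin through its SNAG domain. HOXA9, HOXA10 and MEIS1 form the homeobox program that keeps many acute leukemias in a self-renewing state, and fusions of KMT2A are known to activate it. SPI1 (PU.1) is the ETS factor that drives myeloid genes, and GFI1 is known to oppose it in the choice between granulocytes and monocytes.

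Each antibody and condition had 1 library, so no value below has a replicate check and no test between libraries was made. The lists held from 160 peaks (GFI1 in sg-LSD1 cells) to 6548 peaks (LSD1 in sg-NT cells), with 1846 for SPI1 and 3461 for GFI1 in THP1 cells and 498 for GFI1 in sg-NT cells. The fold of a peak is the fragment pileup at its summit plus a pseudocount of 1, divided by the local background plus 1, so it is smaller than the plain ratio of fragments to background, and its −log10 p is the significance that the peak caller gave it, with 5 as the lowest value listed. Solving these values for whole fragments at the summit gave a median of 11 to 13 per list. At the lowest background of each library, 5 or 6 fragments over a summit were needed to pass the threshold. Sites below it are not in the lists, so a gene with 0 peaks may still hold weaker binding.

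GFI1 in THP1 cells was called at 7 of the 9 genes, namely HOXA9, HOXA10, MEIS1, MYB, ID1, ID2 and CSF1. Over all protein-coding genes with windows drawn the same way, 17.5% had a GFI1 peak in THP1 cells. SPI1 in THP1 cells was called at CSF1 and MYC, 2 of the 9 genes, against 9.57% of all genes. LSD1 in sg-NT K562 cells was called at ID2 and MYB, also 2 of 9, against 29.9% of all genes. GFI1 in sg-NT K562 cells was called at ID2 alone, 1 of 9 against 2.83%, and GFI1 in sg-LSD1 cells at 0 of 9 against 0.928%. CDKN1A was the 1 gene without a peak in any list. The share in the GFI1 list of THP1 cells thus lay above the share of all genes, while that in the LSD1 list lay near it. The shares in the SPI1 list and in the GFI1 list of sg-NT cells also lay above it, but rest on 2 genes and 1 gene. The 9 genes were chosen with earlier results of these data known, so this comparison is a description and no test of enrichment. HOXA9 and HOXA10 count as 2 of the 7 genes but hold the same 2 peaks. The windows of the 9 genes had a median of 50.9 kb against 67.5 kb over all genes, with MEIS1 (180 kb) and MYB (77.9 kb) above that median, and the part of window length in these counts was not tested.

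The 9 windows cover 562.105 kb when shared bases count once, and those of HOXA9 and HOXA10 overlap and hold the same peaks. In this space the GFI1 list of THP1 cells had 8 peaks, or 14.2 per Mb, against 1.66 per Mb over the windows of all genes. The SPI1 list had 2 peaks (3.56 per Mb against 0.837), the LSD1 list 2 (3.56 against 3.29) and the GFI1 list of sg-NT cells 1 (1.78 against 0.228). These densities are a description too, since the genes were chosen with earlier results known. The windows of the 9 genes were shorter in the median (50.9 kb against 67.5 kb), and the part of window length in the densities was not tested. The 8 GFI1 peaks of THP1 cells were of ordinary strength for their list, with a median fold of 8.04 against 7.41 and a median −log10 p of 12.7 against 11.6. They held 7 to 22 fragments over the summit, so each rests on few molecules.

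At the HOXA cluster, GFI1 of THP1 cells had 2 peaks, and the other 4 lists had none in the windows of HOXA9 (ENSG00000078399.19, minus strand of chromosome 7, 27162438 to 27175180) and HOXA10 (ENSG00000253293.6, minus strand, 27170605 to 27180261). The stronger peak spanned chr7:27179223-27180046 with its summit at 27179674, 12.1-fold enrichment, −log10 p 21.7 and 17 fragments, which ranked it 553 of 3461. Its summit lay in the 5′ UTR of the longer HOXA10 transcripts, 587 bp inside the gene body and 5.354 kb upstream of the canonical HOXA10 start. A read-through gene annotated over HOXA10 and HOXA9 (ENSG00000257184) shares this exon. The stretch of 30 bases around this summit (chr7:27179659-27179688, plus strand of GRCh38) is shown because it holds the GFI1 core, written in capitals:

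HOXA10 exon, GFI1 summit of THP1 cells: cgaAATCACtgccaagggacagctggcttc

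The core lay 9.5 bp from the summit, and another copy of it lay 75.5 bp from the summit within the same peak. Of all GFI1 summits in THP1 cells, 10.1% held the core AATCAC on either strand in the 50 bp around them. The weaker HOXA peak spanned chr7:27160709-27161042, between HOXA9 and HOXA7, 4632 bp downstream of the canonical HOXA9 start. It had 4.09-fold enrichment, −log10 p 5.31 and 8 fragments over a local background of 1.20, and ranked 3439 of 3461, close to the bottom of its list. No GFI1, SPI1, GATA or RUNX core was found in the 50 bp at its summit, and 68.9% of its bases were G or C against a median of 48.8% for the list.

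LSD1 in K562 cells had its only peak of the cluster at the opposite end, at chr7:27113438-27113806 in HOXA3, with 7.94-fold enrichment at −log10 p 12.6. Its summit was 51.9 kb from the canonical HOXA9 start, outside the window. In K562 cells the nearest GFI1 peak of sg-NT cells was 2300.94 kb from the HOXA9 start.

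MEIS1 (ENSG00000143995.20, plus strand of chromosome 2, 66433452 to 66573869), the homeobox partner of HOXA9, also had peaks in the GFI1 list of THP1 cells alone. The first spanned chr2:66433412-66433706 with 7.41-fold enrichment, −log10 p 11.3 and 10 fragments. Its summit lay 143 bp inside the gene body, in an intron of longer transcripts, and 1530 bp upstream of the canonical start. The other spanned chr2:66439657-66440130 with 5.95-fold enrichment, −log10 p 8.37 and 8 fragments, and its summit lay in coding exon 3 of 13 of the canonical transcript. Both peaks thus sat at the 5′ end of the gene, 6259 bp apart, in a window of 180 kb. The core AATCAC was in neither summit window, and the shorter core AATC, on the reverse strand as GATT, was in that of exon 3 (chr2:66439829-66439878, plus strand, capitals mark the shorter core):

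MEIS1 exon 3, GFI1 summit of THP1 cells: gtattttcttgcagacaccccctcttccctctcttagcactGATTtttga

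Around MEIS1, K562 cells had no peak for a long way. The nearest LSD1 summit was 998.623 kb and the nearest GFI1 summit of sg-NT cells 1785.91 kb from the canonical start, both upstream. The nearest SPI1 summit of THP1 cells was 1206.67 kb away.

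MYB (ENSG00000118513.20, plus strand of chromosome 6, 135181308 to 135219173) encodes a transcription factor that blood progenitors need to proliferate. It carried the strongest peak of the set. In THP1 cells, GFI1 was called at chr6:135183346-135184174 with its summit at 135183912, 12.3-fold enrichment, −log10 p 24.1 and 22 fragments, rank 442 of 3461. The summit lay in intron 1 (135181537 to 135185902), 2604 bp downstream of the start. The 50 bp at the summit (chr6:135183887-135183936, plus strand) are shown because the GFI1 core, here on the reverse strand, and the SPI1 core GAGGAAGT overlap in them, and capitals mark the run that both cover:

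MYB intron 1, GFI1 summit of THP1 cells: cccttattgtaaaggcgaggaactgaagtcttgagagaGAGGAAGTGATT

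The GFI1 core was 21.5 bp and the SPI1 core 16.5 bp from the summit. Overlapping cores of this kind were rare, with 4 of 3461 GFI1 summits (0.116%) and 2 of 1846 SPI1 summits (0.108%) in THP1 cells. SPI1 itself was not called there, and its nearest summit in THP1 cells was 374.398 kb from the MYB start. Over all 8 GFI1 peaks of THP1 cells in the 9 windows, 0 shared a base with an SPI1 peak, against 5.58% of the whole GFI1 list.

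In sg-NT K562 cells, LSD1 was called in MYB at another place, chr6:135191744-135191995 in intron 5, with 6.05-fold enrichment, −log10 p 9.48 and 12 fragments over a local background of 1.15. Its summit was 7914 bp from the GFI1 summit of THP1 cells, and the 200 bp centred on it held no GFI1 core. They held the GATA core at 35 and 69 bp, a motif that was in 26.1% of LSD1 windows of this length. The nearest GFI1 peak of sg-NT cells lay 142.11 kb downstream of the MYB start in AHI1, with 11.9-fold enrichment. The peaks of the 2 lines in MYB thus lay at separate sites, an early intron for GFI1 in THP1 cells and a later one for LSD1 in K562 cells.

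MYC (ENSG00000136997.22, plus strand of chromosome 8, 127735434 to 127742951), a transcription factor that drives cell growth, had no GFI1 peak in its window in either line. LSD1, with a list from K562 cells but none from THP1 cells, had no peak there either. The 1 peak there was of SPI1 in THP1 cells, from 127759909 to 127760336, with its summit 23814 bp downstream of the canonical start and outside any annotated gene. It had 7.83-fold enrichment, −log10 p 12.1 and 10 fragments, rank 1231 of 1846. The peak began 17.0 kb past the gene body, so it was inside the window of 20 kb and would be missed by a narrower one. The nearest LSD1 summit of K562 cells was 123.582 kb downstream in the long noncoding gene PVT1, with a fold of 4.91, and the nearest GFI1 summit of THP1 cells was 469.718 kb away.

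ID1 and ID2 encode inhibitors that bind basic helix-loop-helix factors and keep them off DNA, and ID2 is a known GFI1 target in blood progenitors. ID1 (ENSG00000125968.9, plus strand of chromosome 20, 31605283 to 31606515) had 1 peak, of GFI1 in THP1 cells, at chr20:31602730-31603207. It had 9.37-fold enrichment, −log10 p 15.7 and 14 fragments. The summit lay 2307 bp upstream of the canonical start in sequence with no annotated gene. The summit window (chr20:31602957-31603006, plus strand) lacked AATCAC and held the shorter core AATC once on each strand, marked by capitals:

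ID1 upstream site, GFI1 summit of THP1 cells: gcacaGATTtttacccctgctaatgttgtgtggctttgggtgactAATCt

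Of all GFI1 summits of THP1 cells, 50.9% held AATC on either strand in this window, so its presence is common. In K562 cells the nearest LSD1 and GFI1 summits of sg-NT cells were 70.694 kb and 70.53 kb downstream of ID1, both in BCL2L1, and none was in the ID1 window.

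ID2 (ENSG00000115738.10, plus strand of chromosome 2, 8678845 to 8684461) was the gene of the set where GFI1 was called in both lines and where LSD1 and GFI1 shared a site. In THP1 cells, the GFI1 peak spanned chr2:8681395-8681701 with 8.67-fold enrichment, −log10 p 14.1 and 13 fragments. In sg-NT K562 cells, the GFI1 peak spanned chr2:8681294-8681653 with 8.27-fold enrichment, −log10 p 13.0 and 11 fragments. The LSD1 peak of the same cells spanned chr2:8681261-8681715 with 9.82-fold enrichment, −log10 p 16.8 and 15 fragments. The 3 summits fell within 59 bp of each other, 492 to 551 bp upstream of the canonical ID2 start, in a 5′ UTR exon of longer ID2 transcripts (8681491 to 8681565) and within the antisense gene ID2-AS1. The 30 bases around the GFI1 core of this site (chr2:8681525-8681554, plus strand, core on the reverse strand in capitals) are shown because all 3 summits lie beside it:

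ID2 shared site: gcccgtgtagctGTGATTttagagctgccg

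The core was 11.5 bp from the GFI1 summit of THP1 cells, 24.5 bp from the LSD1 summit and 34.5 bp from the GFI1 summit of sg-NT cells. In full, it lay inside the 50 bp window of the THP1 summit alone. The edge of the LSD1 window cut it, and it lay just outside the window of the GFI1 summit of K562 cells. Windows of 200 bp held it at both K562 summits. In windows of that length, 22.7% of all GFI1 summits of sg-NT cells and 9.77% of all LSD1 summits held the core. SPI1 was not called near ID2, and its nearest summit in THP1 cells was 3006.38 kb away.

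The overlaps in the windows can be set beside those of the whole lists. The 1 GFI1 peak of sg-NT cells in the 9 windows lay at an LSD1 peak, as did 78.3% of that list. Of the 2 LSD1 peaks, ID2 had a GFI1 peak of sg-NT cells and MYB had none, against 5.96% of the whole LSD1 list with one. The same split held for GFI1 of THP1 cells, with which the LSD1 peak at ID2 shared bases and that at MYB did not, against 4.6% of the LSD1 list. Sites such as ID2, with GFI1 in both lines and LSD1, numbered 67 among the 498 GFI1 peaks of sg-NT K562 cells (13.5%), and ID2 had rank 40 among them by −log10 p.

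In sg-LSD1 K562 cells, GFI1 was called at 0 of the 9 genes, and ID2 was the 1 gene of the set that sg-NT cells had marked by GFI1. The nearest GFI1 summit of sg-LSD1 cells on chromosome 2 was 29861.6 kb from the site. The lowest background was 0.451 fragments in the sg-NT library and 0.547 in the sg-LSD1 library. The 11 fragments at ID2 in sg-NT cells were 24.4 times the lowest background of their library. In sg-LSD1 cells, 6 fragments were needed for a call at the lowest background. The coverage at ID2 in sg-LSD1 cells is not in the list, and the part of read depth was not tested. Absence from the list was the usual outcome, since 10.2% of all GFI1 peaks of sg-NT cells had a counterpart in sg-LSD1 cells. Among 111 GFI1 peaks with a −log10 p within 2 of that at ID2, 9 had one, and of the 67 sites with GFI1 in both lines and LSD1, 13 had one and 54 had none. With 1 library per arm, the guide and the library cannot be told apart.

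CDKN1A (ENSG00000124762.14, plus strand of chromosome 6, 36676460 to 36687337) encodes the cell cycle inhibitor p21 and is a known GFI1 target. Its window held 0 peaks in each of the 5 lists. The nearest summits were of SPI1 in THP1 cells, 27.539 kb upstream of the canonical start with a fold of 7.01, then of GFI1 in THP1 cells, 34.499 kb upstream with a fold of 5.57, and of LSD1 in sg-NT K562 cells, 46.376 kb upstream with a fold of 7.22. These 3 peaks lay at separate places upstream of the gene and began past the limit of 20 kb, the SPI1 peak by the least, at 24.985 kb from the gene body. The nearest GFI1 peak of sg-NT cells was 275.659 kb downstream in PI16, with a fold of 27.1, and GFI1 was called there in sg-LSD1 cells too, with a fold of 5.43.

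CSF1 (ENSG00000184371.14, plus strand of chromosome 1, 109910242 to 109930992) encodes the growth factor of monocytes and macrophages. It was the gene of the set with both SPI1 and GFI1 peaks in THP1 cells, at separate places upstream. The SPI1 peak spanned chr1:109906122-109906440, 4542 bp upstream of the canonical start, with 7.59-fold enrichment, −log10 p 11.99 and 12 fragments. The GFI1 peak spanned chr1:109894913-109895395, 15777 bp upstream, with 5.39-fold enrichment, −log10 p 7.31 and 7 fragments, rank 2964 of 3461. The summits were 11235 bp apart, and neither lay in an annotated gene. In K562 cells the nearest LSD1 summit was 539.937 kb upstream of CSF1.

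None of the 4 cores was found in the 50 bp at either CSF1 summit. The SPI1 core was likewise absent from the SPI1 summit at MYC, while 26.4% of all SPI1 summits held it. Over the GFI1 and LSD1 peaks of the 9 windows, 3 of 11 summits held AATCAC in 50 bp, the GFI1 summits of THP1 cells at HOXA10, MYB and ID2. That is 3 of 8 summits of GFI1 in THP1 cells, against 10.1% of that whole list. The 2 LSD1 summits and the 1 GFI1 summit of sg-NT cells did not hold it in 50 bp, against 2.47% and 9.84% of their lists.

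Where a gene had no peak in its window, the distance to the next one differed widely between lists. For LSD1 the nearest summit of the 7 genes without one was 46.376 to 998.623 kb from the start, with a median of 70.694 kb. For GFI1 in sg-NT cells, the 8 genes without a peak had a median of 1799.48 kb. These distances follow the number of peaks in each list as well as the locus, and chromosome 20, with ID1, had 0 peaks in the sg-LSD1 list.

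Relatives and partners of the 9 genes were counted in the same way, 31 genes in all. In the GFI1 list of THP1 cells 12 of 31 had a peak, but 6 of these are HOXA genes whose windows hold the peaks described above. Without the HOXA genes, a choice made after the values were seen, 6 of 22 had one (27.3%, against 17.5% of all genes), among them ID3, CDKN1B, CDKN2C, CSF1R and MYCL. LSD1 was called at 9 of 31 genes and, without the HOXA genes, at 5 of 22 (22.7%, against 29.9% of all genes). SPI1 was called at 5 of 31, none of them a HOXA gene (against 9.57%). GFI1 of sg-NT cells was called at 2 of 31, with ID3 among them (against 2.83%), and GFI1 of sg-LSD1 cells at 0 (against 0.928%).

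ID3, a relative of ID1 and ID2 on chromosome 1, also had GFI1 of both lines and LSD1 at a shared site. GFI1 of THP1 cells (fold 22.2, −log10 p 47.5), LSD1 (fold 8.59) and GFI1 of sg-NT cells (fold 8.24, −log10 p 12.9) overlapped just upstream of its canonical start, with summits at 23559700, 23559966 and 23559840, and GFI1 was not called in sg-LSD1 cells. Its window held 3 LSD1 peaks in all, and the other two lay apart from GFI1. ID4 had no peak in any list. The ID family thus had GFI1 of THP1 cells at ID1, ID2 and ID3, and GFI1 with LSD1 of K562 cells at ID2 and ID3.

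CSF1R, the receptor for CSF1, differed from its ligand in that each of its 2 SPI1 peaks in THP1 cells shared bases with a GFI1 peak. The pair nearest its start lay 4588 bp (SPI1, fold 9.26) and 3976 bp (GFI1, fold 17.5) downstream of the canonical start. At MYCL, a relative of MYC, SPI1 (fold 10.9, −log10 p 57.3) and GFI1 (fold 9.89, −log10 p 61.7) of THP1 cells overlapped 11405 and 11431 bp downstream of the start and had the largest −log10 p of the relatives in both lists. The local background there was 6.36 and 8.40 fragments against 0.404 and 0.484 as the lowest of these libraries, and its part in the −log10 p was not tested.

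A further 7 genes described as GFI1 targets (BAX, E2F5, E2F6, EGR1, EGR2, ETS1 and IL7R) had LSD1 peaks at BAX, E2F5, E2F6 and ETS1, 4 of 7 (against 29.9% of all genes). E2F5 had the strongest LSD1 peak of these, with a fold of 15.1, and the 1 GFI1 peak of sg-NT cells (fold 11.2, at 1 of 7 genes against 2.83%), which overlapped it 44489 bp downstream of the canonical start. In THP1 cells, ETS1 was the 1 gene of 7 with a GFI1 peak (fold 8.82, against 17.5% of all genes) and with an SPI1 peak (fold 5.83, against 9.57%), and these did not overlap. The other 6 had neither.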

How the data were processed

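ChIP-seq peak lists of THP1 and K562 cells, 1 library per condition, were analysed. Input libraries and murine H3K4me1 libraries were not used here. Fixation combined formaldehyde with DSG, and 5 μg of antibody went into each ChIP. Per the submitters' processing notes and the study's methods, the authors used Trim Galore 0.6.1, Bowtie2 2.5.4 (GRCh38), Picard 3.1.0 and MACS2 2.2.9.1, kept peaks with p below 1e-05 and left out blacklisted regions. Whether an input served as control is not given in the sources used here. The fold (ratio of pileup plus 1 to background plus 1), the −log10 p-value and the −log10 q-value of each peak are deposited values. The deposited score, a rounded multiple of the −log10 p, was not used.

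The members and related gene lists were chosen with earlier results of these data known. Windows, overlaps (at least 1 bp), nearest peaks and motif cores (both strands, 50 bp centred on the summit) were computed with Python 3.11.15, numpy 2.4.6 and pysam 0.24.0, on GENCODE release 44 and GRCh38. Every peak in a window is named. Where a window had none, the distance to the nearest summit is plotted, and some of these peaks are named. Relatives were to be named for the largest −log10 p or a GFI1 peak in K562 cells, and ID4 and CSF1R were added after values were seen. Some results on relatives are not reported here. Fragments were solved from fold and −log10 p (pseudocount 1, tolerance 0.01, scipy 1.17.1), which gave a whole number for at least 99.97% of each list. The scripts were tested on simulated data. No reads were at hand, so read totals are unknown. Alternatives were flanks of 5 and 50 kb, stricter −log10 p (8) or −log10 q (2), summits in place of intervals, other overlap rules, wider motif windows, shorter cores and a pseudocount of 0. Figures used matplotlib 3.10.9. No sequence of chromosome 8 is given.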

Additional observations from a re-analysis of the deposited data

How the results depend on the processing

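Of 74 alternative values of the counts, 67 stayed within 1.5 times the reported value. A flank of 5 kb left 1 SPI1 peak at 1 gene, since the peak at MYC then fell outside. A flank of 50 kb gave 4 LSD1 peaks at 4 genes, with CDKN1A and HOXA9 added. GFI1 at 7 genes in THP1 cells and the overlaps did not move by over 1.5 times under any alternative tried. The count of 0 genes with GFI1 in sg-LSD1 cells also stayed at 0, but stricter settings and narrower windows could only keep it there. For that count, the flank of 50 kb was the setting that could have added a peak. Stricter settings likewise could not move the overlap counts of 0, and such values are among the 67. The GFI1 core was in 5 of the 11 GFI1 and LSD1 summits with windows of 200 bp and in 6 with the shorter core AATC. The rise at 200 bp added no site, since the ID2 core already counted was now also reached from both K562 summits there. Among whole lists, windows of 200 bp held the core at 27.8% (GFI1, THP1), 9.77% (LSD1) and 22.7% (GFI1, sg-NT) of summits. Shares for AATC in 50 bp were 50.9%, 27.6% and 46.8%, in the same order. The shorter SPI1 core GAGGAA was in 1 SPI1 summit, against 43% of that list. With a pseudocount of 0, whole fragment numbers were found for 1.81% to 5.09% of each list. Each list is 1 library of unknown read depth, with a median of 11 to 13 fragments at a summit, and coverage below the calling threshold was not analysed here.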
